A study of Mus musculus with 4 samples.

Results

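The promoters of 55 ribosomal protein genes, 34 of the large and 21 of the small ribosomal subunit, were examined by ATAC-seq in primary mouse chondrocytes at passage 0 (P0) and passage 8 (P8). The genes were taken from a given list of Rpl and Rps symbols, out of 21887 protein-coding genes on chromosomes 1 to 19, X and Y of the RefSeq table of GRCm38.p6. A peak was counted for a gene when it reached within 1 kb of one of the gene's ends, which gave 115 of 145703 peaks in P0 library A, 104 of 119974 in P0 library B, 92 of 89610 in P8 library A and 91 of 99784 in P8 library B. The rule uses no measured value.

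In ATAC-seq, Tn5 transposase inserts sequencing adapters into accessible DNA. Chondrocytes were taken from knee cartilage of newborn C57BL/6 mice up to 4 days of age, and P0 cells had spent under 24 hours in culture, whereas P8 cells had been passaged 8 times, each time once their number had doubled. Each passage had 2 libraries, with no treatment or genetic change given in the labels, called library A and library B here because the peak names carry no replicate number, and nothing in the labels says whether mice were pooled or whether both libraries came from separate isolations. Differences between libraries of one passage may therefore be technical.

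Ribosomal proteins are the protein part of the large and small ribosomal subunits, which join on an mRNA to translate it. Their genes are transcribed in every growing cell, in near-equal amounts, from promoters that mostly lack a TATA box and that start within a run of C and T bases. In the mRNA this run forms the 5′ terminal oligopyrimidine tract, through which mTOR signalling controls the translation of the whole family. Many of these genes carry small nucleolar RNAs (snoRNAs) in their introns, which guide the modification of ribosomal RNA.

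RefSeq promoter windows (250 bases before to 50 after a transcript start, GRCm38.p6) were found for 44 of the 55 genes, with 52 annotated starts. No window was used here for Rpl3, Rpl7, Rpl8, Rpl17, Rpl21, Rpl29, Rpl30, Rpl32, Rpl36, Rps14 and Rps20. Stretches from 90 bases before the start, ending 20 bases into the transcript with its first base included, are printed for 9 genes on the strand of the gene, with matches to the motifs named below and any run of at least 5 C or T bases that spans the start in capitals. Rpl27, Rpl34 and Rpl14 had peaks of high rank in all libraries, Rpl15 and Rps6 show pyrimidine runs beside other motifs, Rps6 and Rpl12 hold the palindrome called Box A, Rpl35 and Rps12 stood higher and lower, respectively, in rank at P8, and Rps2 starts far from the ends of its gene. The stretches lie at chr11:101442155-101442264 on the plus strand (Rpl27), chr3:130730318-130730427 minus (Rpl34), chr9:120571427-120571536 plus (Rpl14), chr14:18270967-18271076 minus (Rpl15), chr4:86857348-86857457 minus (Rps6), chr2:32961622-32961731 plus (Rpl12), chr2:39005112-39005221 minus (Rpl35), chr10:23787190-23787299 minus (Rps12) and chr17:24719973-24720082 plus (Rps2).
Rpl27: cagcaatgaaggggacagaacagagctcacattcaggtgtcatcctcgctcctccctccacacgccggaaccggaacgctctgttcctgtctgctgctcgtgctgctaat
Rpl34: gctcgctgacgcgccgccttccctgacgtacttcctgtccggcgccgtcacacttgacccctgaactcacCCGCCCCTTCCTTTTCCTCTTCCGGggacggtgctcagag
Rpl14: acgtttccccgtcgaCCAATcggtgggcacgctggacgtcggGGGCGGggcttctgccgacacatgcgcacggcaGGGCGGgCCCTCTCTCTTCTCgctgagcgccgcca
Rpl15: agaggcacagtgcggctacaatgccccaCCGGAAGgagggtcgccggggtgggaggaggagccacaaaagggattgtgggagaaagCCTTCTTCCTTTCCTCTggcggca
Rps6: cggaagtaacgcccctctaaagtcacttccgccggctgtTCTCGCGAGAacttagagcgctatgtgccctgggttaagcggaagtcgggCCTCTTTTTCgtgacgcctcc
Rpl12: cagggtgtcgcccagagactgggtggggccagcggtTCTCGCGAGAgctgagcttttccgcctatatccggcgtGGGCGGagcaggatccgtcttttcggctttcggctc
Rpl35: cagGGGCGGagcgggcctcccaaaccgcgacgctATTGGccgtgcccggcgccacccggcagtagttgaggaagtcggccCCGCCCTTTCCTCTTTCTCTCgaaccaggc
Rps12: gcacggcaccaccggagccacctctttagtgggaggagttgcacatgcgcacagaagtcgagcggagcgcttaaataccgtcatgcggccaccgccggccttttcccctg
Rps2: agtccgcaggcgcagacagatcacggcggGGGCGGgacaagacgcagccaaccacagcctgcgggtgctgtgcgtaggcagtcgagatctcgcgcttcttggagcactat

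Long runs of pyrimidines were more frequent in these promoters than over all genes. The longest run of C and T on the coding strand was taken within 100 bases around the start, over all annotated starts of a gene. It had a median of 11 bases over the 44 members and of 7 bases over all 17492 genes. A run of at least 8 bases was present in 39 of 44 members, or 88.6%, and in 39.2% of all 17492 genes with a window. A run of at least 5 bases spanned the annotated first base in 15 members (34.1%) and in 10.2% of all genes, and it reached 20 bases in Rpl34 and Rpl27a and 21 bases in Rpl7a. Annotated starts can lie a few bases from the true one, so a run beside the first base was not counted as spanning it.

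Motifs were searched on both strands of the windows. CCGGAAG, the core bound by ETS factors such as GABPA, was present in 18 of 44 members, or 40.9% (95% Wilson interval 27.7 to 55.6%), and in 12.9% of all genes. Box A, a palindrome of TCTCG followed by its reverse complement, was present in 6 members (Rpl10a, Rpl12, Rpl26, Rps6, Rps19 and Rps28), or 13.6% (6.40 to 26.7%), and in 0.755% of all genes. The TATA box, TATAAA, was found in 3 members (Rpl22, Rps2 and Rps28), or 6.82% (2.35 to 18.2%), against 14.8% of all genes. The CCAAT box, CCAAT, was found in 29.5% (18.2 to 44.2%) and 42.3%, and the GC box, GGGCGG, in 54.5% (40.1 to 68.3%) and 49.2%. For AAGATGG, a YY1 motif, the shares were 15.9% (7.93 to 29.4%) and 7.18%, for the E-box CACGTG 13.6% (6.40 to 26.7%) and 8.91%, and for the NRF1 motif of GCGCA followed by its reverse complement, 2.27% (0.402 to 11.8%) and 1.47%. The intervals cover counting error only, a match is no evidence of binding, and the ETS core and GC box may overlap the pyrimidine run, as in Rpl34 above. Averaged over the windows of each gene, the members had a median GC content of 57.7% and 21.5 CpG dinucleotides per window, against 56.3% and 13.0 over all genes.

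**Figure D1:**
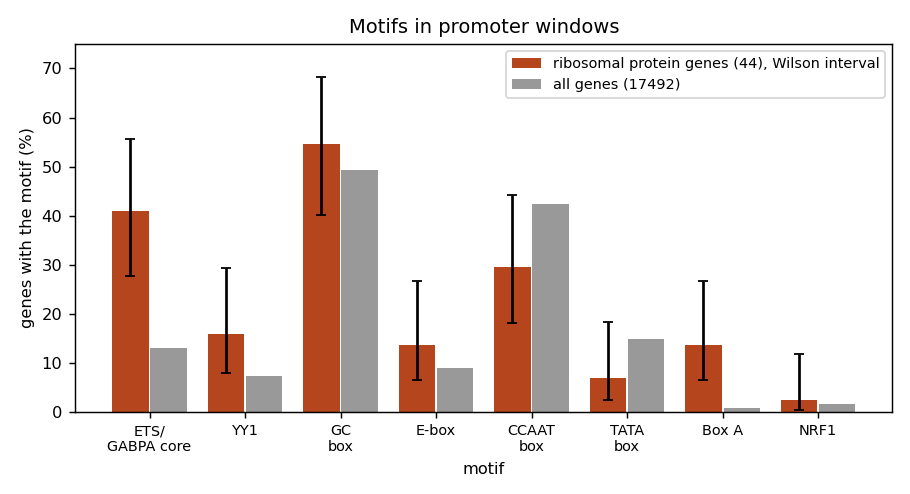
Share of genes (%) with each motif in the promoter window, for 44 ribosomal protein genes (bars with 95% Wilson intervals) and all 17492 genes with a window. The ETS core (40.9% against 12.9%) and Box A (13.6% against 0.755%) stand above all genes, and the intervals of the other motifs include the share of all genes, apart from YY1, whose lower bound of 7.93% lies just above 7.18%.

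The 4 libraries differed in depth, which bears on every value below. The lowest background of the peak caller ran from 134 to 194 tags per 10 kb and was lower in both P8 libraries, and the median pileup over all peaks was 13 to 16 tags. At gene ends of cartilage markers (Col2a1, Acan, Sox9 and 5 others) peaks were present in all 4 libraries for 8 of 8 genes, against 1 of 5 blood and macrophage markers and 2 of 4 endothelial markers, while of 6 fibroblast markers 3 had one in all 4 libraries. With 2 libraries a passage, an exact two-sided permutation test of one gene cannot give a p below 0.333, so none was run per gene, and genes are described by whether the libraries of both passages overlap.

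Nearly every ribosomal protein gene was open in every library. A peak lay within 1 kb of a gene end in all 4 libraries for 53 of the 55 genes (96.4%), against 58.2% of all 21887 protein-coding genes. These 53 genes had a peak in each library, and Rps2 and Rpl17 had none in any (30.9% of all genes), so no member gained or lost its gene-end peak between P0 and P8. For 51 of the 53 genes the strongest peaks of the 4 libraries shared at least 1 base, with a median of 406 shared bases and a median distance of 37 bp between the outermost summits. Among all 12729 genes with a peak in all 4 libraries, 87.2% shared bases, with a median of 429 bases and 59 bp between summits. The exceptions were Rpl3 and Rpl13a, whose strongest peaks had summits up to 525 and 4576 bp apart.

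Both genes without a gene-end peak had peaks inside the gene. Rps2 encodes a small-subunit protein near the mRNA entry channel and lies at chr17:24718121-24721927, and its annotated start was 1864 bp from the nearest gene end. A peak over this start was called in every library, with a fold enrichment of 6.86 and 8.47 at P0 and of 6.77 and 6.92 at P8 (library A, then library B). Its pileup was 52 and 52 tags at P0 and 25 and 29 tags at P8. Rpl17, which lines the exit tunnel of the large subunit, had an internal peak with a fold enrichment of 7.53 and 7.38 at P0 and 5.27 and 5.97 at P8, starting 1253 to 1469 bp from the nearer gene end. Within 3 kb of a gene end, all 55 genes had a peak in all 4 libraries.

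Measured from annotated starts instead of gene ends, 42 of 44 genes had a peak within 1 kb in all 4 libraries (59.8% of all 17492 genes with a start). Rpl18 and Rpl19 lacked one in P8 library A only, and their starts lay 2604 and 3569 bp from the nearest gene end. At their starts the fold enrichment was low, with 3.68, 4.50 and 3.71 for Rpl18 and 3.90, 4.76 and 3.72 for Rpl19 in P0 libraries A and B and P8 library B. The peaks of these genes at the gene ends were therefore other peaks than those at the listed starts. For 36 of the 42 genes the strongest peak at the start was also the strongest at the gene ends in all 4 libraries. It was another peak in all 4 libraries for Rpl4, Rpl22, Rpl38, Rps2 and Rps18, and in some of them for Rpl13a. The gene-end peak of Rpl4 and Rps18 lay at the end away from the start in all 4 libraries. For Rpl4, Rpl22, Rpl38 and Rps18 the values by gene ends below are thus not those of the strongest peak at an annotated start.

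Summits lay just upstream of the start. The median offset was −48.0 and −47.0 bp at P0 (libraries A and B) and −59.0 and −42.5 bp at P8, and over all genes it was −39.0 to −38.0 bp. From 61.9 to 69.0% of the members had the summit within 100 bp of a start, and 71.4 to 83.3% had it upstream, where all genes gave 55.2 to 60.2% and 67.2 to 69.6%. Single genes held their summit within a few bases over all 4 libraries, with a range of 1 bp for Rpl37, 2 bp for Rpl6 and Rps9, and 4 bp for Rpl34 and Rps12. The range was 723 bp for Rpl4, whose start had weak peaks of 13 to 22 tags at P0 and 11 to 16 tags at P8. Rpl4, a protein of the large-subunit exit tunnel, had its strong peak at the far end of the gene, which is also an end of Snapc5, with a fold enrichment of 10.7, 11.9, 7.75 and 9.38 in the 4 libraries. Rpl22, an RNA-binding protein of the large subunit, has a second annotated start, and the peak there had a fold enrichment of 11.6 and 11.8 at P0 and 12.2 and 8.30 at P8, above the 8.66 and 6.04 and the 6.16 and 6.66 of its gene-end peak.

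**Figure D2:**
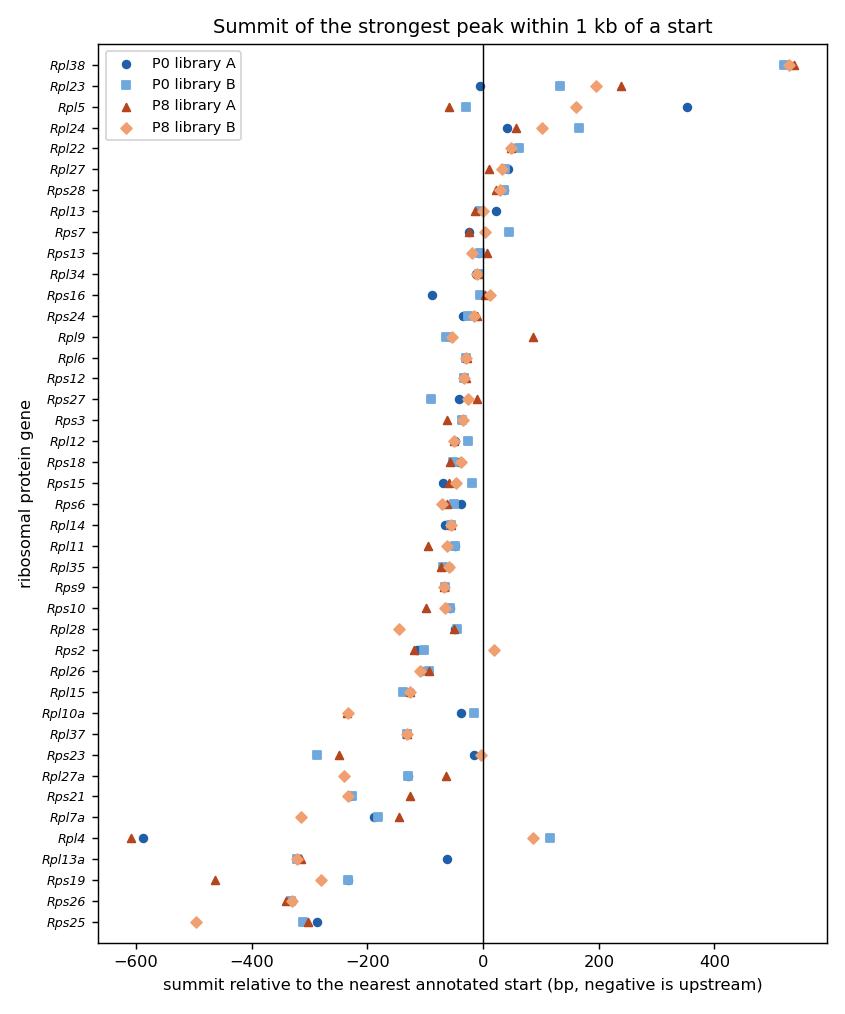
Distance in bp of the summit of the strongest peak within 1 kb from the nearest annotated start (negative is upstream), for the 42 genes with such a peak in all 4 libraries, one symbol per library. From 61.9 to 69.0% of the symbols of a library lie within 100 bp of the start, and Rpl4, Rps23 and Rpl5 show libraries on both sides of the start or far apart.

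Most ribosomal protein promoters were open but, by fold enrichment, not among the highest peaks. Peaks were ranked by fold enrichment within each library, so that the percentile is the share of peaks of that library at or below the peak. The strongest gene-end peak of the 53 genes had a median percentile of 79.1 and 78.7 at P0, libraries A and B, and of 78.1 and 79.3 at P8. The median gene of the 12729 with a peak in all 4 libraries stood at 86.1 and 85.9 at P0 and at 82.1 and 82.3 at P8. A percentile of at least 50 in all 4 libraries was reached by 45 of the 53 (81.1% of all genes), of at least 75 by 25 (53% of all genes) and of at least 90 by 5 (20.4% of all genes). The large-subunit genes had medians of 77.0, 73.0, 70.3 and 78.8 and the small-subunit genes of 83.6, 83.5, 80.0 and 80.4, in the same order of libraries.

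The median fold enrichment of the members was 8.48 and 8.97 at P0 compared with 7.63 and 8.21 at P8, whereas that of all genes was 9.83 and 10.3 at P0 compared with 8.16 and 8.63 at P8. The pileup at the summit, in tags, did not stand lower in the same way, with member medians of 48, 44, 23 and 28 tags and medians over all genes of 48, 43, 25 and 28 tags. Ranked by pileup among all peaks, the members had median percentiles of 92.8, 92.2, 83.1 and 87.6, against 92.8, 91.7, 86.2 and 87.6 over all genes. Fold enrichment divides this pileup by the local background around the peak. That background was higher at the members at P0, with medians of 626 and 476 tags per 10 kb against 506 and 411 over all genes, and close to all genes at P8, with 274 and 303 against 279 and 293. The ribosomal protein genes are short, with a median length of 3230 bp against 17169 bp, and whether this moved the local background was not tested.

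Among large-subunit genes, Rpl27 (chr11:101442245-101445596) had the highest peak of all members. Its fold enrichment was 16.0 and 15.9 at P0 compared with 11.8 and 13.5 at P8, at percentiles of 99.3, 98.8, 96.9 and 98.4, or ranks 1082, 1472, 2814 and 1606 from the top. Rpl34 had percentiles of 92.1 and 96.1 at P0 and of 95.0 and 97.1 at P8. Rpl14 stood at 96.9 and 94.8 at P0 and at 96.7 and 89.6 at P8, and Rpl30 at 92.4 and 92.7 and at 96.3 and 94.3. Rpl14 starts within a pyrimidine run of 14 bases, and Rpl34 within one of 20 bases at the printed start (sequences above). That start of Rpl34 was printed because the run over it is the longer, and its other annotated start lies in no run. The run over the start of Rpl27 was 3 bases long. In the small subunit Rps3, a protein of the mRNA entry site that also acts in DNA repair, was highest, with percentiles of 97.6 and 97.4 at P0 and of 94.9 and 94.6 at P8. These genes stayed near the top in all 4 libraries, and only Rpl27 and Rps3 of them stood lower in both P8 libraries.

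The lowest ranks belonged to 5 large-subunit genes. Rpl8, a protein close to the peptidyl transferase centre (chr15:76904071-76906318), had percentiles of 45.5 and 56.6 at P0 and of 14.6 and 29.3 at P8. Rpl19 had 58.1 and 47.3 at P0 and 35.1 and 17.9 at P8, from a peak that is not at its annotated start. Rpl10a had 54.3 and 43.4 at P0 and 42.8 and 42.0 at P8, although its pileup of 47, 36, 25 and 29 tags was near the median of the members. Rpl13 had 63.1 and 75.9 at P0 and 45.0 and 49.8 at P8. In Rpl12 the P8 libraries differed more from each other than from P0, with 57.0 and 48.7 at P0 and 44.8 and 78.8 at P8. A low rank by fold enrichment thus went with few tags in Rpl8 (30, 28, 11 and 17 tags) but not in Rpl10a.

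**Figure D3:**
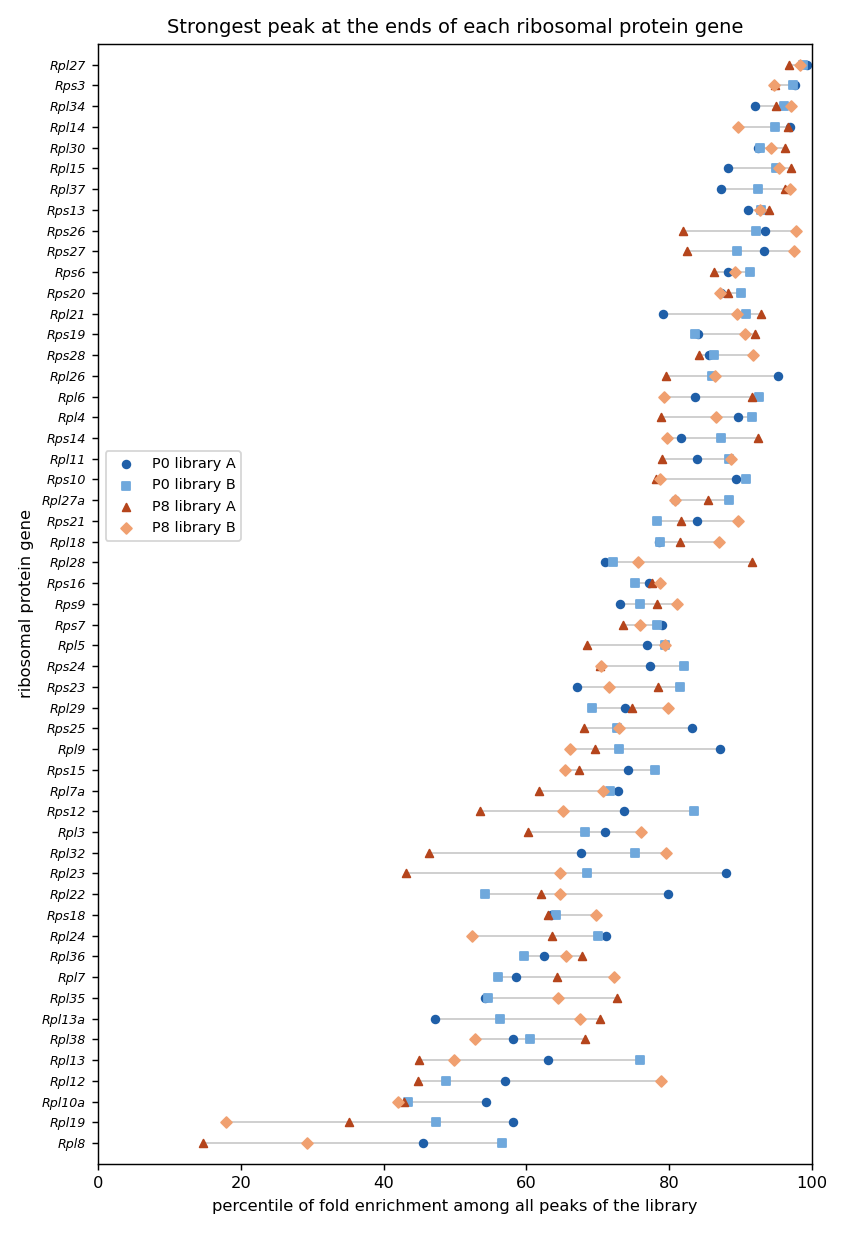
Percentile of fold enrichment among all peaks of the library for the strongest gene-end peak of the 53 ribosomal protein genes, ordered by their mean, one symbol per library and a grey line over the range. Rpl27 lies at 96.9 or above in every library and Rpl8 at 56.6 or below. Both P8 symbols lie above both P0 symbols in 13 genes (14.6% of all genes) and below them in 16 (40.8% of all genes), while the others mix.

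The members held fewer tags at the summit at P8, as other genes did. The pileup was lower in both P8 libraries than in both P0 libraries for 52 of 53 members (93.3% of all genes), Rpl12 being the exception, and higher in both for 0 (0.613% of all genes). Depth differed in the same direction, so the pileup was also expressed per 100 tags of the lowest background of the library. On this scale the member medians were 24.7 and 27.2 at P0 and 16.4 and 20.9 at P8, and those of all genes 24.7 and 26.5 at P0 and 17.9 and 20.9 at P8. Both P8 libraries were lower for 44 of 53 members (75.4% of all genes) and both higher for 0 (3.19%). The ratio of the P8 mean to the P0 mean was below 1 in 53 of 53 members, with a median of 0.738, and in 92.3% of all genes, with a median of 0.776. It was lowest in Rps12 (0.486) and highest in Rpl7 (0.898).

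Fold enrichment changed less than the pileup. It was lower in both P8 libraries for 24 of 53 members (61.9% of all genes) and higher in both for 5 (4.34% of all genes), namely Rpl7, Rpl13a, Rpl35, Rpl36 and Rps19. The ratio of P8 to P0 of the member medians was 0.908 with an SD of 0.0591 (propagated from n = 2 libraries a passage), where all genes gave 0.834. In the percentile among all peaks, 13 members were higher in both P8 libraries (14.6% of all genes) and 16 lower in both (40.8% of all genes). The median percentile differed by −0.19 between P8 and P0 with an SD of 0.874, less than the spread between libraries, while that of all genes differed by −3.82. These lists of peaks are of unequal length, and the sign depends on how peaks were ranked. The difference was 8.71 points with an equal number of the strongest peaks taken from each library, −6.19 when ranked by −log10 q and −7.14 when ranked by pileup. At annotated starts, 42 members had median percentiles of 82.0 and 80.5 at P0 and of 78.2 and 79.1 at P8, a difference of −2.62 points. All genes had 86.3 and 86.2 at P0 and 82.7 and 82.7 at P8 there. Median fold enrichment at starts was 8.94, 9.32, 7.65 and 8.16 in the members (ratio 0.866) and 9.86, 10.4, 8.27 and 8.70 over all genes.

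Set against other genes only, by gene-end peaks, the members stood higher at P8 at the median, though unevenly. The strongest peaks of the 12729 genes with a peak in all 4 libraries were ranked among themselves in each library, and the members had a median percentile of 32.9 and 33.8 at P0 and of 42.2 and 44.2 at P8. This is a difference of 9.82 points between means of 33.3 ± 0.675 (SD, n = 2) and 43.2 ± 1.42 (SD, n = 2), and all genes stand at 50.0 by construction. Both P8 libraries were higher for 22 of 53 members (29.7% of all genes) and lower for 3 (22.5% of all genes), namely Rpl4, Rps3 and Rps10. The large-subunit genes had medians of 29.3 and 25.6 at P0 and of 31.8 and 42.7 at P8. The small-subunit genes had 42.6 and 43.9 at P0 and 45.8 and 47.1 at P8, a difference of 3.21 points. The 15 members with a peak near another coding gene differed by −0.405 points, and the 38 with none nearby by 7.08 points. On the pileup per 100 background tags, the median ratio of the members was below that of all genes (0.738 and 0.776), so the 2 scales place the members on opposite sides of all genes. The local background was lower at P8 by the larger factor at the members, with a ratio of the medians of 0.524 against 0.624 over all genes. The ranking among genes was not made at annotated starts. There the median percentile among all peaks was lower at P8 both in the members and over all genes, as given above.

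**Figure D4:**
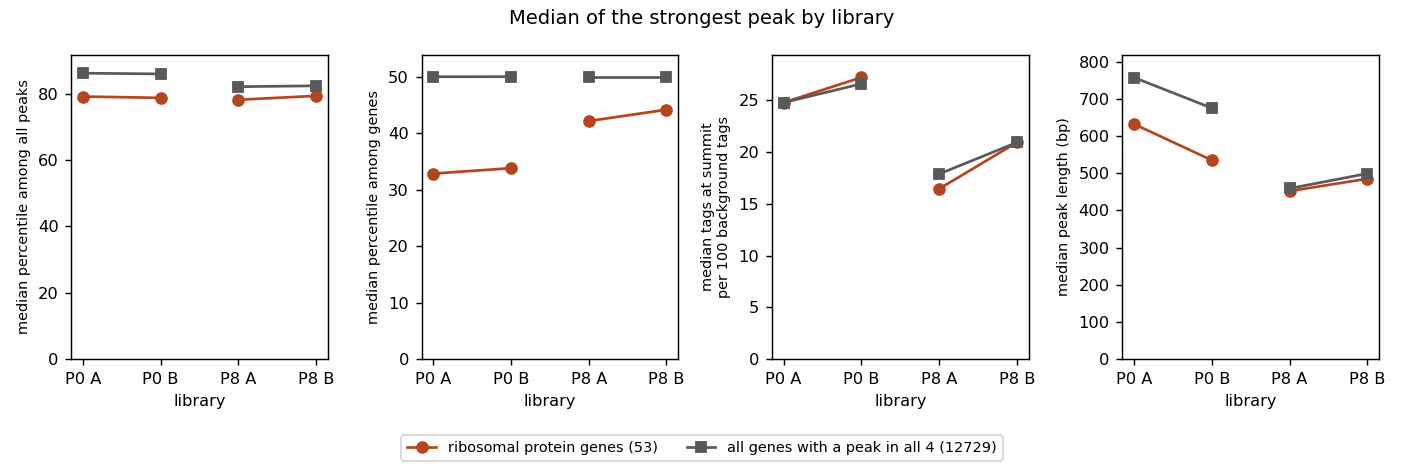
Median over 53 ribosomal protein genes (circles) and over all 12729 genes with a peak in all 4 libraries (squares) in each library, for the percentile of fold enrichment among all peaks and among genes, the tags at the summit per 100 background tags and the peak length in bp. The member medians among genes are 32.9 and 33.8 at P0 and 42.2 and 44.2 at P8, while tags and lengths of members and of all genes are both lower at P8.

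Among the 13 members with a higher percentile in both P8 libraries, Rpl13a differed most. Rpl13a, a large-subunit protein that can also leave the ribosome to silence inflammatory mRNAs, lies at chr7:45125563-45128745. Its percentile was 47.3 and 56.3 at P0 compared with 70.3 and 67.5 at P8, but its strongest gene-end peak lay at the end away from the start in both P0 libraries and at the start in both P8 libraries. At its annotated start alone the percentiles were 46.8 and 54.3 at P0 and 70.3 and 67.5 at P8, so the passages did not overlap there either. Rpl35 stood at 54.2 and 54.6 at P0 and at 72.6 and 64.5 at P8. For Rpl28, percentiles were 70.9 and 72.1 at P0 and 91.7 and 75.6 at P8, and the difference of 12.1 points rests on P8 library A, without which it was 4.06 points, and was 20.1 points without P8 library B. Rpl7 had 58.5 and 56.0 at P0 and 64.3 and 72.3 at P8, a difference of 11.0 points that was 7.01 points without P8 library B. Rps19, the gene most often mutated in Diamond-Blackfan anaemia, stood at 84.0 and 83.6 at P0 and at 92.0 and 90.6 at P8.

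In none of these 5 genes was the summit higher in tags at P8. The pileup of Rps19 was 73 and 68 tags at P0 and 49 and 48 tags at P8, or 37.6 and 42.0 per 100 background tags at P0 and 35.0 and 35.8 at P8. For Rpl35 it was 31.4 and 32.7 per 100 background tags at P0 and 26.4 and 28.4 at P8.

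The largest differences downwards in the percentile among all peaks were those of Rpl8 (−29.1 points) and Rpl19 (−26.2 points), whose values are given above. Rpl23, a large-subunit protein at the interface with the small subunit, had percentiles of 87.9 and 68.5 at P0 and of 43.1 and 64.8 at P8. Its difference of −24.3 points was −14.6 points without P0 library A and −13.4 points without P8 library A, and its peaks were small, with 31, 18, 10 and 15 tags. Rpl13 differed by −22.1 points. Rps12, a protein of the small-subunit head that hosts 3 snoRNA genes, had percentiles of 73.7 and 83.5 at P0 and of 53.5 and 65.1 at P8. Its pileup of 46 and 47 tags at P0 and 15 and 20 tags at P8 gave the lowest ratio among the members, while its summit stayed within 4 bp. Ranked among genes instead, the passages overlapped in Rpl8, Rpl19, Rpl23, Rpl13 and Rps12. Rpl8, for example, stood at 3.48 and 9.69 at P0 and at 2.33 and 4.82 at P8. The P8 mean on that scale was still the lower in each, from −1.64 points in Rpl19 to −19.98 points in Rpl23.

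**Figure D5:**
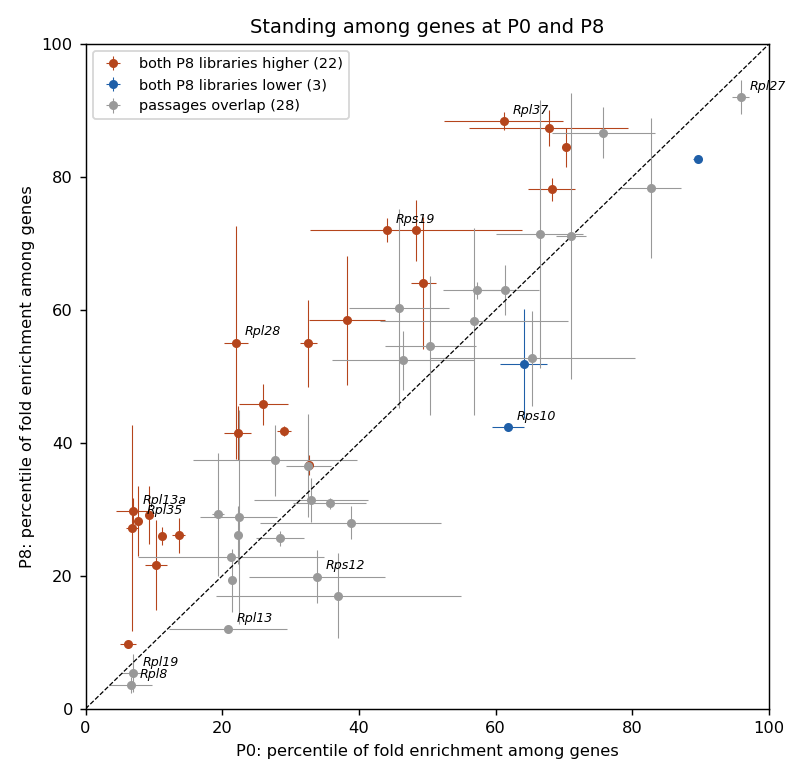
Percentile of fold enrichment among the 12729 genes with a peak in all 4 libraries at P0 (horizontal) and P8 (vertical) for 53 ribosomal protein genes, with points at the mean of 2 libraries and lines from the lower to the higher library. Points above the dashed line of equal percentile are higher at P8. Both P8 libraries are higher in 22 genes (29.7% of all genes) and lower in 3 (22.5% of all genes).

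The median peak of the members was shorter at P8, by a smaller factor than that of all genes. The median length was 632 and 535 bp at P0 compared with 452 and 485 bp at P8 (ratio 0.803, SD 0.103), where all genes had 757 and 675 bp at P0 compared with 459 and 499 bp at P8, a ratio of 0.669. Both P8 libraries were shorter for 28 of 53 members (72.4% of all genes) and longer for 1 (1.52% of all genes), Rpl13a. In Rpl13a these are peaks at different ends of the gene, and at its annotated start the peak was shorter at P8, with 1039 and 648 bp at P0 compared with 501 and 644 bp at P8. Members thus had the shorter peaks at P0 and peaks of nearly the same length as other genes at P8. The longest peaks were those of Rpl7, with 1380 and 1690 bp at P0 compared with 872 and 1340 bp at P8, followed by Rps25 (1044, 1019, 846 and 989 bp) and Rps19 (925, 911, 808 and 852 bp). Rpl7 and Rps25 lie beside the ends of Rdh10 and Trappc4. The shortest were those of Rpl8, with 155 and 251 bp at P0 compared with 73 and 129 bp at P8, Rpl22 (232, 235, 169 and 157 bp) and Rps15 (387, 235, 195 and 241 bp). A length of 73 bp is the shortest that the peak caller listed. The ratio of P8 to P0 ran from 0.285 in Rpl19 to 1.01 in Rpl37, leaving out Rpl13a, whose peaks lay at different ends. The peak of Rpl19 is not at its annotated start and lies near an end of Cacnb1.

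A peak lay at both gene ends in all 4 libraries for 10 of the 55 members (6.12% of all genes), namely Rpl4, Rpl13a, Rpl24, Rpl36, Rpl38, Rps10, Rps18, Rps19, Rps21 and Rps27. Since 1 peak can reach both ends of a short gene, the count was repeated for genes over 2 kb, where it was 8 of 48 members (5.8% of all genes). In genes little longer than 2 kb, a long peak can still count for both ends. For Rpl4, Rpl36, Rps18, Rps21 and Rps27, another coding gene ends beside the peak (Snapc5, Micos13, B3galt4, Cables2 and Rab13). Over all 55 members, 15 had such a neighbour, so that the peak cannot be given to the ribosomal protein gene alone. The 38 members with a gene-end peak beside no other coding gene had median percentiles of 79.1 and 81.8 at P0 and of 78.4 and 79.5 at P8, and the 15 others 83.2 and 72.6 at P0 and 69.6 and 73.0 at P8.

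Members that host snoRNA genes had values near those of the others. In 21 members 43 snoRNA genes lie inside the gene, and 19 of these members had a gene-end peak in all 4 libraries. Their median percentiles were 79.1 and 83.5 at P0 and 77.6 and 79.4 at P8, and the 34 members without a snoRNA gene had 79.4 and 78.3 at P0 and 78.2 and 77.3 at P8. Members with the ETS core in their window had medians of 83.9 and 88.3 at P0 and of 79.6 and 80.8 at P8 (17 genes), and those without it 77.3 and 78.3 at P0 and 74.0 and 77.2 at P8 (26 genes). The 6 members with Box A had 84.8, 84.8, 81.9 and 87.9 in the 4 libraries, and the 37 others 79.8, 78.7, 78.1 and 78.8. Genes with a run of at least 5 pyrimidines over the start had 80.9, 82.0, 81.6 and 80.8 (15 genes), against 81.5, 79.1, 75.6 and 78.8 without (28 genes). These groups of genes are set side by side as a description, with no test.

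Other genes of the translation apparatus were compared by the same counts. The 25 other cytosolic ribosomal protein genes, which include Rplp0 of the stalk and Rpsa, had a peak in all 4 libraries in 25 of 25, with median percentiles among genes of 31.1 and 35.1 at P0 and 41.7 and 35.5 at P8, and 12 were higher and 3 lower in both P8 libraries (29.7% and 22.5% of all genes, the shares beside which each count here stands). Of 78 mitochondrial ribosomal protein genes 75 had a peak in all 4 libraries, with medians of 62.7 and 64.9 at P0 and 61.1 and 53.7 at P8, and 15 were higher and 19 lower. Of 18 translation factor genes such as Eef1a1 and Eif4e, all 18 had one, with medians of 44.9 and 48.8 at P0 and 65.7 and 58.4 at P8, and 9 were higher and 4 lower. Of 14 ribosome biogenesis genes such as Fbl and Npm1, 13 had one, with medians of 55.0 and 51.7 at P0 and 74.2 and 66.8 at P8, a difference of 17.2 points where the members gave 9.82, and 4 were higher and 1 lower. Among 6 paralogs of cytosolic ribosomal proteins 4 had a peak in all 4 libraries, and Rpl10l, a testis form, and Rps27l had none in any. The members and the other cytosolic ribosomal protein genes thus stood below the median gene in all 4 libraries, and the mitochondrial ones above it.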

How the data were processed

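ATAC-seq libraries were made from P0 and P8 chondrocytes, 2 per passage. Reads were aligned by the authors with Bowtie2 (build mm10 per the labels), and peaks were called per library with MACS2 at default parameters. For each peak the authors deposited its position and length, the pileup at the summit (a signal in tags, not scaled for depth), the fold enrichment over local background, and −log10 values for p and q. A further table of the authors' DiffBind comparison holds fold changes and FDR and was not used. No per-library value column was left unused (0 columns). Versions are not given in the sources used here.

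Peaks were assigned to genes within 1 kb of either end, since the gene table carries no strand, and the peak with the highest fold enrichment represented a gene. Local background was computed from pileup and fold enrichment, with tags extended to 73 bp, in 10 kb windows. At most 1 tag per position and strand was counted, judging by the highest possible pileup of 146 tags; the members reached 81. Pileup depends on depth, and background per library is the only depth measure here. Assignment was tested on simulated data (16000 gene and library pairs, 100% correct). The members, comparison lists and motifs were chosen with earlier results of these data known. Named genes were those without a peak in a library, the 5 highest and 5 lowest by mean percentile, the 5 largest differences each way among those whose passages did not overlap, the 3 longest and 3 shortest peaks and those with peaks at both ends. Others named were chosen after their values were seen. The tools were pandas 2.3.3, numpy 2.4.6, scipy 1.17.1 and matplotlib 3.10.9 under Python 3.11.15. Distances, ranking measures, peak choices and left-out libraries were varied.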

Additional observations from a re-analysis of the deposited data

How the results depend on the processing

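Of 68 values under other settings, 48 stayed within the spread between libraries, the counting interval or 1.5 times the count, and 20 moved. The number of members with a peak in all 4 libraries ran from 40 (−log10 q of at least 10) to 55 (3 kb), with 42 from annotated starts. The difference of the median percentile, −0.19, became −1.94 at 3 kb, −2.62 at annotated starts, 8.71 with equal numbers of peaks per library, −6.19 by −log10 q, −7.14 by pileup, 3.66 among peaks at ends of protein-coding genes and 9.82 among genes, so its sign depends on the measure and the set of peaks. It was −0.776 to 0.399 with one library left out. The ratio of fold enrichment, 0.908, became 0.648 with pileup over the median background and 0.719 over the lowest background, an alternative chosen after seeing the data, and was 0.875 to 0.941 with one library left out. The ratio of length was 0.741 to 0.876 in those cases and 0.742 to 0.851 otherwise. Counts of 13 higher and 16 lower members became 22 and 3 among genes (29.7% and 22.5% of all genes) and 5 and 24 by fold enrichment (4.34% and 61.9%). By pileup over the lowest background they were 0 and 44 (3.19% and 75.4% of all genes), and by −log10 q 2 and 30. They were 8 and 14 at annotated starts, and 15 to 23 higher and 20 to 28 lower with one library left out, with the high ends of 23 without P8 library A and 28 without P8 library B (both chosen after seeing the data). With a library left out, passages separate more readily in any gene, so these counts cannot be set against 13 and 16. Shares over all genes were not computed for −log10 q, annotated starts and left-out libraries. The E-box share was 4.55% within 100 bases of the start. The causes were not tested. No paired analysis was possible because the peak names carry no replicate number. Depth limits small peaks such as those of Rpl8 and Rpl23, and the background of 1 library cannot be told apart from its passage.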
